A study of Homo sapiens with 4 samples.

Results

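The genes described here carry glucose into the cell and turn it into lactate. They were fixed by name: the glucose transporters SLC2A1 and SLC2A3 and the enzymes HK1, HK2, PFKP, ALDOA, ENO1, ENO2, PKM and LDHA, which make 10 of the 31907 gene names counted in the 4 libraries. All 10 were listed in every library, with 161 to 57339 counts, and all 10 passed the filter on low counts, as did 16361 genes in all.

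The study asked which transcripts change in gastric cancer cells given recombinant IL-17B (rIL-17B), a cytokine that signals through the receptor IL-17RB. HGC-27, an established human gastric cancer cell line, received either PBS (2 libraries) or 200 ng/ml rIL-17B (2 libraries), and RNA was collected from both groups at 48 h. Libraries were made by Smart-seq2, which primes cDNA at the poly(A) tail and amplifies it by PCR. The labels name replicates 1 and 2 of each group but not separate cultures, so every p-value below measures the spread between these libraries, which may be technical.

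Glucose enters most cells through facilitative transporters of the SLC2A (GLUT) family and is trapped inside by hexokinase, which adds a phosphate. Phosphofructokinase commits the sugar to glycolysis, aldolase splits it, enolase and pyruvate kinase complete the path to pyruvate, and lactate dehydrogenase turns pyruvate into lactate. Many tumour cells run this path to lactate even with oxygen present, and most steps have several isozymes encoded by separate genes. HK2 and the enolase ENO2 are the isozymes best known for being restricted in healthy tissue, ENO2 to neurons and neuroendocrine cells, while HK1 and ENO1 are widespread.

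The library labelled rIL-17B replicate 1 stood apart from the other 3, so levels are given for each rIL-17B library and fold changes of the 10 genes also without that one. Library totals ran from 12888029 to 17555879 counts and do not set it apart, but 342 genes with at least 100 counts in each of the other libraries had at most 3 there, against 0 such genes for any other library. The rIL-17B libraries differed by at least 2-fold at 16.9% of the genes tested and the PBS libraries at 0.636%. Cell type markers differed in that library too. All 10 mesenchymal markers checked reached 10 counts in every library. Their summed level was 45917 to 54889 CPM (counts scaled to a library total of 1000000) in the other libraries and 1208 CPM in rIL-17B replicate 1. There 9 of 10 were at least 2-fold below the lower PBS value. Of all genes tested 24.0% were at least 1.5-fold below it, and the share at 2-fold was not counted. Summed epithelial markers were 989 to 1245 CPM in the other libraries and 2219 CPM there, a sum made up chiefly of the keratins KRT8, KRT18 and KRT7. Of those 10 markers only 2 were at least 2-fold higher in that library, and KRT19 went the other way, with 1 count there and 43 to 58 elsewhere. In every library 5 of 10 reached 10 counts, with CDH1 at 7 to 11 counts, and CLDN3, ESRP1 and GRHL2 at no more than 3. The labels' library protocol speaks of monocytes, whose 10 markers summed to 8.62 to 15.1 CPM, with only CSF1R at 10 counts or more in every library. Whether that library holds the same cells as the others is in doubt from these values and was not tested, so every value pooled over both rIL-17B libraries carries that doubt. The part that these differences play in the values below was not tested either, and in bulk RNA fewer cells of a type cannot be told apart from less RNA per cell.

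Per kilobase of annotated exon, the scale on which different genes can be set side by side, 4 enzyme transcripts were far more abundant than those of the transporters and hexokinases. With PBS the mean level was 433 ± 3.42 CPM per kilobase for ENO1, 283 ± 6.78 for PKM, 260 ± 8.44 for ALDOA and 236 ± 14.8 for LDHA (SD, n = 2). SLC2A1 followed at 36.6 ± 0.697, PFKP at 33.9 ± 0.583 and HK1 at 28.0 ± 0.630. The lowest levels were those of SLC2A3 at 14.7 ± 1.48, ENO2 at 13.2 ± 0.198 and HK2 at 12.3 ± 0.614 CPM per kilobase. No neighbours in this order overlapped between the PBS libraries, but ALDOA and LDHA, SLC2A1 and PFKP, and ENO2 and HK2 changed places in both rIL-17B libraries. The first of those pairs and SLC2A1 with PFKP also changed places when the longest annotated transcript replaced the merged exons. Together the 10 genes held 0.795% and 0.790% of all counts in the PBS libraries, 1.25% in rIL-17B replicate 1 and 0.869% in replicate 2.

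**Figure D1:**
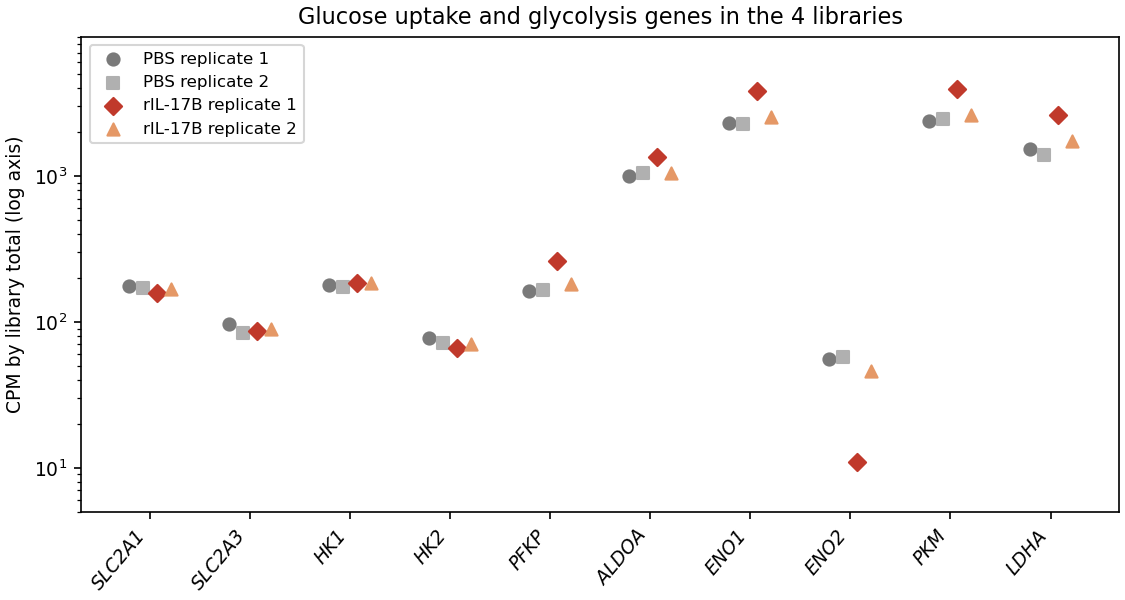
Level of each gene in each library, in CPM by library total on a log axis, with the genes in pathway order along the horizontal axis. ENO1, PKM and LDHA lie above the PBS libraries in both rIL-17B libraries, and ENO2 is lowest in rIL-17B replicate 1, at 11.0 CPM.

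None of the 10 genes passed the test of rIL-17B against PBS over all 4 libraries. In edgeR's quasi-likelihood test, adjusted over all genes tested by the Benjamini-Hochberg method, 0 of 10 were called, as were 0% of the 16361 genes tested, and their adjusted p ran from 0.661 to 0.971. At an unadjusted p under 0.05 the test called 0 of the 10 genes and 1.38% of all genes. Judged only by whether the libraries overlap in CPM, 6 of 10 genes lay above both PBS libraries in each rIL-17B library (HK1, PFKP, ALDOA, ENO1, PKM and LDHA), where 31.5% of all genes were. Another 3 of 10 lay below both (SLC2A1, HK2 and ENO2), where 27.5% of all genes were, and SLC2A3 overlapped. Non-overlap was therefore common across the whole transcriptome, and the fitted median log2 fold change of the 10 genes, 0.08, stood beside -0.03 for all genes tested. Without rIL-17B replicate 1 those medians were 0.05 and -0.01, and replicate 2 alone lay above both PBS libraries in 6 of the 10 genes (37.0% of all genes) and below both in 3 (36.1%). The common dispersion was 0.196 with all libraries. It was 0.0039 without rIL-17B replicate 1 and also 0.0039 without rIL-17B replicate 2, where only the PBS pair shows spread. Without PBS replicate 1 or 2, where only the rIL-17B pair shows spread, it was 0.416 and 0.415.

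The separation was much wider in one library than in the other. By library total, 4 of 10 genes in rIL-17B replicate 1 were at least 1.5 times both PBS libraries (PFKP, ENO1, PKM and LDHA), as were 15.0% of all genes. ENO2 alone of the 10 was lower there by that factor, as were 24.0%. In rIL-17B replicate 2, 0 of 10 genes were higher by that factor (1.07% of all genes) and 0 of 10 lower (3.66%). Scaling by edgeR's trimmed mean factors (0.97 and 0.98 for PBS) would lower the ratios of replicate 1 (factor 1.07). These counts were not repeated with that scaling. Fitted without replicate 1, where the lone rIL-17B library is assumed to vary as the PBS pair does, edgeR called LDHA as the 1 gene of 10 that was higher (0.643% of all genes) and 0 of 10 lower (2.30%). Fitted without replicate 2 instead, it called 5 of 10 higher (PFKP, ALDOA, ENO1, PKM and LDHA, beside 23.2% of all genes) and 3 of 10 lower (SLC2A1, HK2 and ENO2, beside 31.9%).

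**Figure D2:**
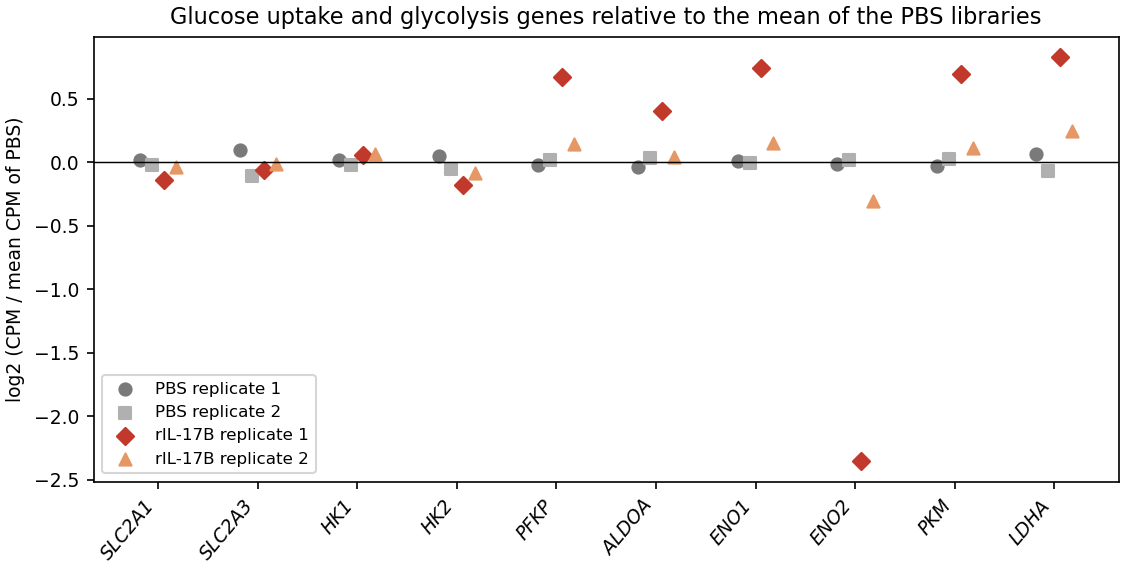
Log2 ratio of each library's CPM to the mean CPM of the PBS libraries, with the 10 genes in pathway order and 1 point per library. The linear ratios run from 0.195 for ENO2 to 1.78 for LDHA in rIL-17B replicate 1, and from 0.811 for ENO2 to 1.19 for LDHA in replicate 2.

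Both glucose transporters varied little. SLC2A1 (GLUT1; chr1:42925375-42959176, minus strand, GENCODE 29 on GRCh38), the transporter for basal uptake in many cell types, was at 175 and 171 CPM with PBS and at 157 and 169 CPM with rIL-17B replicates 1 and 2. Both rIL-17B values lay below both PBS values, replicate 2 by less than 2 CPM, and the fitted log2 fold change was -0.15 (SE 0.13, edgeR adjusted p = 0.663) with all libraries and -0.04 (SE 0.09, adjusted p = 0.921) without replicate 1. SLC2A3 (GLUT3; chr12:7919230-7936275, minus strand), a transporter of high glucose affinity known best from neurons, was at 97.0 and 84.0 CPM with PBS and at 86.6 and 89.9 CPM with rIL-17B. Its groups overlapped, and the spread between the PBS libraries was wider than that between the rIL-17B libraries (log2 fold change -0.11, SE 0.14, adjusted p = 0.727, and -0.02, SE 0.09, adjusted p = 0.973 without replicate 1). SLC2A3 shares 15.3% of its 50-base stretches with the transcripts of SLC2A14, a near copy with 5 to 12 counts per library, so reads could be split between these genes. SLC2A3 made up 35.6% and 33.0% of the counts of both transporters with PBS and 35.5% and 34.7% with rIL-17B, which overlapped.

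The hexokinase balance was tilted towards HK1 in every library, a little more so with rIL-17B. HK1 (chr10:69269984-69401884, plus strand), the housekeeping isozyme, was at 179 and 174 CPM with PBS and at 184 and 185 CPM with rIL-17B. Those groups did not overlap by library total, but they did after scaling by edgeR's trimmed mean factors, and the fitted log2 fold change was -0.0080 (SE 0.11, adjusted p = 0.971), or 0.06 (SE 0.09, adjusted p = 0.842) without replicate 1. HK2 (chr2:74833981-74893359, plus strand), the inducible isozyme that many tumours express, was at 77.3 and 72.0 CPM with PBS and at 65.9 and 70.5 CPM with rIL-17B. Its rIL-17B values were both the lower ones, by a margin narrower than the gap between the PBS libraries in the case of replicate 2 (log2 fold change -0.20, SE 0.13, adjusted p = 0.661, and -0.09, SE 0.10, adjusted p = 0.786 without replicate 1). A lincRNA that overlaps HK2 on the opposite strand, AC019069.1, had 41 to 83 counts, and whether counting used strand is not given in the sources used here.

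Taken within each library, where depth cancels, HK2 supplied 30.1% of the HK1 and HK2 counts in PBS replicate 1 (95% Clopper-Pearson interval 28.7 to 31.6) and 29.3% in replicate 2 (27.7 to 30.9). Its share was 26.4% (25.0 to 27.9) in rIL-17B replicate 1 and 27.6% (26.3 to 29.0) in replicate 2. Those intervals cover counting error only and leave out the spread between libraries. They treat counts as independent, which PCR copies are not, so they may be too narrow even for that error. The interval of rIL-17B replicate 2 overlaps both PBS intervals. The mean log2 ratio of HK2 to HK1 counts was -1.24 ± 0.040 with PBS and -1.43 ± 0.065 with rIL-17B (SD, n = 2), a difference of -0.19. It was -0.15 without rIL-17B replicate 1 and -0.24 without replicate 2, so neither library alone set the direction. An exact two-sided permutation test gave p = 0.33, the smallest that 2 against 2 libraries allow. Per kilobase, HK1 stood 2.23 and 2.32 times above HK2 with PBS and 2.69 and 2.52 times with rIL-17B.

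PFKP, its partner PFKM and ALDOA lay above both PBS libraries in each rIL-17B library, further in replicate 1, while the isozymes PFKL and ALDOC lay below, and none of these 5 genes passed the test. PFKP (chr10:3066333-3137712, plus strand), the platelet-type phosphofructokinase, was at 162 and 166 CPM with PBS and at 262 and 182 CPM with rIL-17B. Replicate 1 lay at 1.60 times and replicate 2 at 1.11 times the PBS mean (log2 fold change 0.36, SE 0.17, adjusted p = 0.661, and 0.15, SE 0.09, adjusted p = 0.480 without replicate 1). Its muscle-type partner PFKM was at 129 and 128 CPM with PBS and at 213 and 151 CPM in the rIL-17B libraries, whereas the liver-type PFKL was at 95.7 and 99.1 CPM with PBS and at 88.2 and 95.0 CPM in the rIL-17B libraries. Of the level of all 3 isozymes per kilobase, PFKP made up 54.2% and 54.5% with PBS and 58.2% and 54.6% with rIL-17B, and PFKL 17.3% and 17.6% with PBS and 10.6% and 15.5% with rIL-17B.

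ALDOA (chr16:30064164-30070457, plus strand), the main aldolase of muscle and of proliferating cells, was at 995 and 1042 CPM with PBS and at 1353 and 1052 CPM with rIL-17B. The second rIL-17B value exceeded the higher PBS value by less than the PBS libraries differed from each other, and the log2 fold change was 0.16 (SE 0.16, adjusted p = 0.675), or 0.04 (SE 0.08, adjusted p = 0.880) without replicate 1. ALDOA shares 37.0% of its 50-base stretches with the annotated transcripts of AC093512.2, so its count may depend on how shared reads were treated. ALDOC, the aldolase of brain, was at 19.6 and 25.0 CPM with PBS and at 17.7 and 16.8 CPM with rIL-17B, and its share of the counts of ALDOC and ALDOA was 1.93% and 2.34% with PBS against 1.29% and 1.57% with rIL-17B.

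The widest contrast lay between the enolases, which catalyse the same step. ENO1 (chr1:8861000-8879250, minus strand), the enolase of most tissues, was at 2297 and 2271 CPM with PBS and at 3822 and 2536 CPM with rIL-17B. Both rIL-17B libraries stood above both PBS libraries, and the fitted log2 fold change was 0.39 (SE 0.23, adjusted p = 0.661), falling to 0.15 (SE 0.07, adjusted p = 0.344) without replicate 1. ENO2 (chr12:6913745-6923698, plus strand), the neuronal or gamma enolase, was at 55.8 and 57.0 CPM with PBS and at 11.0 and 45.7 CPM with rIL-17B, from 888, 735, 161 and 803 counts. Both rIL-17B values lay below the PBS values, at 0.195 and 0.811 of the PBS mean, and the fitted log2 fold change was -1.02 (SE 0.78, adjusted p = 0.661), or -0.31 (SE 0.11, adjusted p = 0.105) without replicate 1. Other genes known from neural cells were low in the same library: the 10 neural markers checked summed to 327 and 486 CPM with PBS and to 28.4 and 244 CPM with rIL-17B replicates 1 and 2. Most of the PBS sums came from NES (220 and 345 CPM) and SOX2 (75.5 and 116 CPM). Both were among the 6 of 10 at least 2-fold lower in replicate 1, where 24.0% of all genes tested were lower by at least 1.5-fold. The share of all genes at 2-fold was not counted. That fall was not particular to neural markers. In the same library 6 of 10 monocyte markers, with low counts, and 9 of 10 mesenchymal markers were at least 2-fold lower. Of the 10 epithelial markers 1 was lower and 2 were higher by that factor. The neuronal genes ELAVL4 and DCX had 0 counts in every library, and TUBB3 and NEFM had at most 24 and 11. LRRC23, which overlaps ENO2 on the same strand, had 43 to 84 counts.

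Opposite shifts of both genes within a library made the isozyme share more divergent than either level. ENO2 supplied 2.37% of the ENO1 and ENO2 counts in PBS replicate 1 (95% Clopper-Pearson interval 2.22 to 2.53) and 2.45% in replicate 2 (2.28 to 2.63). The share was 0.287% (0.245 to 0.335) in rIL-17B replicate 1 and 1.77% (1.65 to 1.90) in replicate 2, so that neither rIL-17B interval reached a PBS interval. These intervals leave out the spread between libraries, so that gap is no test of the groups. On the log2 scale the mean ratio of ENO2 to ENO1 counts was -5.34 ± 0.033 with PBS and -7.12 ± 1.87 with rIL-17B (SD, n = 2), a difference of -1.78 (exact two-sided permutation p = 0.33, the smallest possible). That difference was -0.45 without rIL-17B replicate 1 and -3.10 without replicate 2, and replicate 1 thus set most of its size but not its sign. Per kilobase, ENO1 stood 33.4 and 32.3 times above ENO2 with PBS, 281 times in rIL-17B replicate 1 and 45.0 times in replicate 2. The muscle enolase ENO3 was higher in both rIL-17B libraries, like ENO1, at 49.6 and 52.6 CPM with PBS and at 116 and 67.7 CPM in the rIL-17B libraries.

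ENO2 had the widest range of the 10 genes, 2.32 on the log2(CPM + 0.5) scale. Genes whose centred values tracked it most closely over the 4 libraries were KDM5B, a histone demethylase, at a root mean square distance of 0.0157, AC239859.6 at 0.0218 and TNC, the matrix protein tenascin C, at 0.0280. KDM5B had 1339 and 1137 counts in the PBS libraries and 249 and 1245 in rIL-17B replicates 1 and 2, and TNC was at 141 and 148 CPM with PBS and at 29.8 and 121 CPM with rIL-17B. AC239859.6 had only 25 to 30 counts in 3 libraries and 0 in rIL-17B replicate 1, so its likeness rests on the added 0.5 CPM. In all, 97 genes lay within 0.1 of ENO2, and with 4 libraries the low value of replicate 1 is most of what they share.

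The sequences just upstream of ENO1, ENO2 and LDHA are printed because these genes hold the lowest and the highest ratios and the isozyme contrast. They are the 250 bases before the transcription start in RefSeq on GRCh38.p14, written along the gene's strand, at chr1:8878687-8878936 (minus strand) for ENO1, chr12:6914330-6914579 (plus strand) for ENO2 and chr11:18394313-18394562 (plus strand) for the first of the LDHA starts. Capitals mark the letters ACGTG on either strand, a core that hypoxia-inducible factors are known to bind and that overlaps the CACGTG letters of E-boxes. Only these letters were searched for, so a window without capitals may still hold other binding sites.
ENO1 promoter: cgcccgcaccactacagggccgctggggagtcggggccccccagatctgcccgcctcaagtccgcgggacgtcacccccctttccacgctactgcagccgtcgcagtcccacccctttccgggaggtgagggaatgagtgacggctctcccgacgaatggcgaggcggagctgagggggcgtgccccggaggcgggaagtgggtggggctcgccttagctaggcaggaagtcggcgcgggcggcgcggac
ENO2 promoter: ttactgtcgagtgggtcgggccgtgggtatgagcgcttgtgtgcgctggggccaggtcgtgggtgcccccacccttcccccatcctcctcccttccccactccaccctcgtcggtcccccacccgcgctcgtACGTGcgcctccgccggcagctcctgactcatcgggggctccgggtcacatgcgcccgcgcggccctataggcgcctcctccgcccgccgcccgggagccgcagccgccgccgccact
LDHA promoter: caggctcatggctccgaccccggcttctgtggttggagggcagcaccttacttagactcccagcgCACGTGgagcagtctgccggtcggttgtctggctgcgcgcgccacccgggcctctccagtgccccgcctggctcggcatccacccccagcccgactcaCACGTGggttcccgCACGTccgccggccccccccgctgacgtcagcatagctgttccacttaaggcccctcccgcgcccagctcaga
The ENO1 window held 0 such stretches, the ENO2 window 1, beginning at position -118 from the start, and the printed LDHA window 3, at -185, -87 and -73. The window of the second LDHA start held 0. RefSeq promoters were matched for 9 of the 10 genes (not SLC2A3), with 22 windows in all. The letters stood in 8 of the 22 windows, in at least 1 window each of ALDOA, ENO2, HK2, LDHA and PFKP, which are 5 of the 9 genes. Among all 35116 promoter windows of the same length 18.5% held them, as did at least 1 window of 21.7% of the 27305 gene symbols. The 9 genes had more windows per gene than the symbols at large, and some of their windows overlap. The shares per gene are therefore not like for like, and no test was made. Genes with and without the letters lay on both sides of the PBS values, ENO2 and HK2 below and LDHA, PFKP and ALDOA above among those with them.

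At the end of the pathway PKM and LDHA were higher in both rIL-17B libraries. PKM (chr15:72199029-72231822, minus strand) encodes the M1 and M2 forms of pyruvate kinase by alternative splicing, which counts per gene cannot separate. It was at 2383 and 2465 CPM with PBS and at 3923 and 2622 CPM with rIL-17B (log2 fold change 0.35, SE 0.22, adjusted p = 0.661, and 0.11, SE 0.07, adjusted p = 0.542 without replicate 1). LDHA (chr11:18394388-18408425, plus strand), the lactate dehydrogenase subunit that favours the making of lactate, was at 1532 and 1402 CPM with PBS and at 2610 and 1740 CPM with rIL-17B. Both rIL-17B libraries lay above both PBS libraries, at 1.78 and 1.19 times the PBS mean. Its log2 fold change was 0.48 (SE 0.23, adjusted p = 0.661) over all libraries and 0.24 (SE 0.07, adjusted p = 0.0436) without replicate 1, the only adjusted p of the 10 genes to pass 0.05 in that fit. LDHAP4, a pseudogene that resembles LDHA, had 33 to 50 counts.

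The other subunit, LDHB, held a nearly equal proportion to LDHA in all 4 libraries. It was at 683 and 633 CPM with PBS and at 1135 and 785 CPM with rIL-17B, and made up 30.8% and 31.1% of the LDHA and LDHB counts with PBS and 30.3% and 31.1% with rIL-17B. The mean log2 ratio of LDHB to LDHA differed by -0.02 between the groups (exact two-sided permutation p = 0.667), with overlapping libraries. It ran from -1.20 to -1.15 over the 4 libraries, a spread wider than the difference. The ratio of SLC2A3 to SLC2A1 overlapped too. All other pairs compared did not: HK2 to HK1, ENO2 to ENO1, ALDOC to ALDOA, PFKP to PFKL, PFKP to PFKM and SLC2A14 to SLC2A3. Such separation can be small, as PFKP to PFKM differed by only -0.07. How often ratios of other gene pairs separate was not counted.

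**Figure D3:**
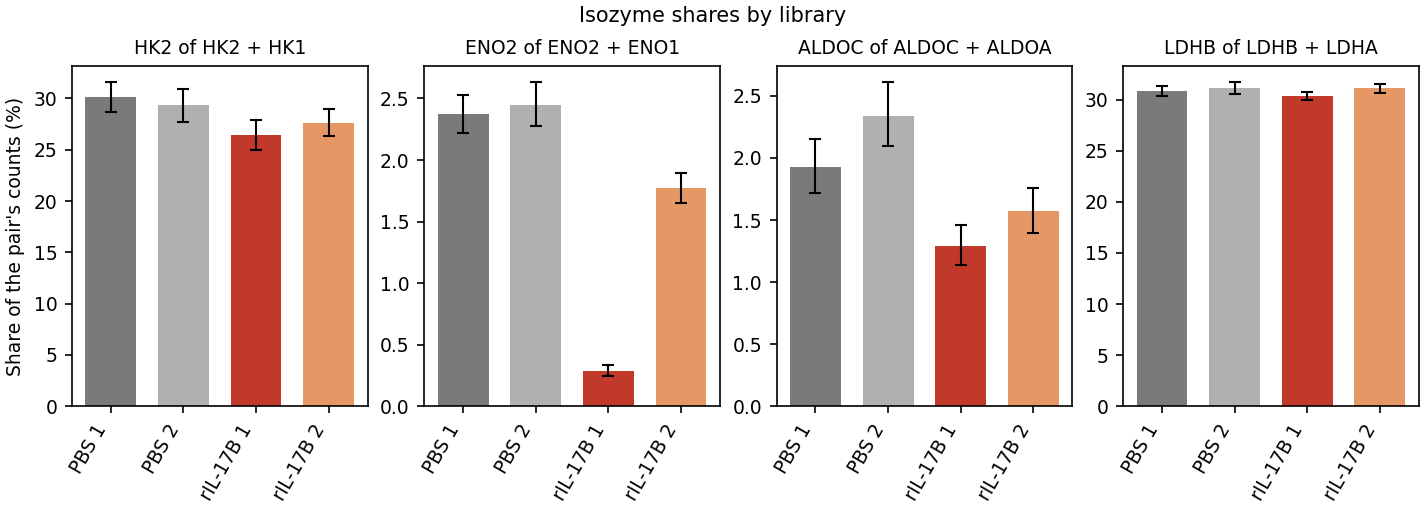
Share of the first gene in the summed counts of each isozyme pair, in percent, with 1 bar per library and 95% Clopper-Pearson intervals, which cover counting error only. The shares of HK2 (26.4% to 30.1%), ENO2 (0.287% to 2.45%) and ALDOC (1.29% to 2.34%) are lower in both rIL-17B libraries, and that of LDHB (30.3% to 31.1%) overlaps.

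Around these 10 genes, 63 other genes of glucose handling were looked up from lists written by hand, of which 58 were listed and 44 tested. Over all 4 libraries edgeR called 0 of the 44, and 1 had an unadjusted p under 0.05, ENO3 (log2 fold change 0.76, SE 0.25, unadjusted p = 0.0463, adjusted p = 0.661). Without replicate 1 it called 2, ENO3 (log2 fold change 0.40, SE 0.10, adjusted p = 0.0069) and LDHB (0.25, SE 0.08, adjusted p = 0.0485), both higher, where it called 0.643% of all genes higher and 2.30% lower. Of the 11 other glycolysis enzymes tested, 7 lay above both PBS libraries in each rIL-17B library and 2 lay below (31.5% and 27.5% of all genes), with a median log2 ratio to the PBS mean of 0.61 in replicate 1 and 0.15 in replicate 2, beside 0.08 and -0.0013 for all genes tested. In the pentose phosphate pathway, which branches off after hexokinase and supplies NADPH and ribose, 5 of 7 were higher and 1 lower, with medians of 0.46 and 0.08. Lactate exporters and their chaperone had 3 of 5 higher and 1 lower, and regulators 3 of 11 higher and 3 lower, a share near that of all genes. Gluconeogenesis, the reverse path, had 2 of 3 tested genes higher and 1 lower. Over all 44 genes 21 were higher and 10 lower, and in replicate 2 alone 21 lay above and 15 below both PBS libraries, beside 37.0% and 36.1% of all genes.

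Transporters outside the 10 held the lowest values of replicate 1 among the glucose genes. Of 7 tested, 1 was higher in both rIL-17B libraries and 2 were lower, with medians of -0.17 in replicate 1, also with SLC2A10 set at its floor, and -0.16 in replicate 2. SLC2A10 (GLUT10) had 515 and 445 counts with PBS, 0 in rIL-17B replicate 1 and 521 in replicate 2, which makes replicate 1 at least 163-fold lower than the PBS mean when 3 counts are taken as its floor. SLC2A5, the fructose transporter GLUT5, had 308 and 241 counts with PBS and 43 and 308 with rIL-17B (log2 fold change -0.92, SE 0.95, adjusted p = 0.684, and -0.12, SE 0.15, adjusted p = 0.815 without replicate 1). SLC2A12 had 38 and 47 counts with PBS and 1 and 43 with rIL-17B, and the lactate exporter SLC16A8 20 and 20 with PBS and 8 and 19 with rIL-17B. By library total, SLC2A10 was at 32.4 and 34.5 CPM with PBS and at 0 and 29.7 CPM with rIL-17B. SLC2A5 was at 19.4 and 18.7 CPM with PBS and at 2.94 and 17.5 CPM with rIL-17B. SLC2A12 overlapped, at 2.39 and 3.65 CPM with PBS and at 0.0684 and 2.45 CPM with rIL-17B. SLC16A8 was at 1.26 and 1.55 CPM with PBS and at 0.547 and 1.08 CPM with rIL-17B.

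**Figure D4:**
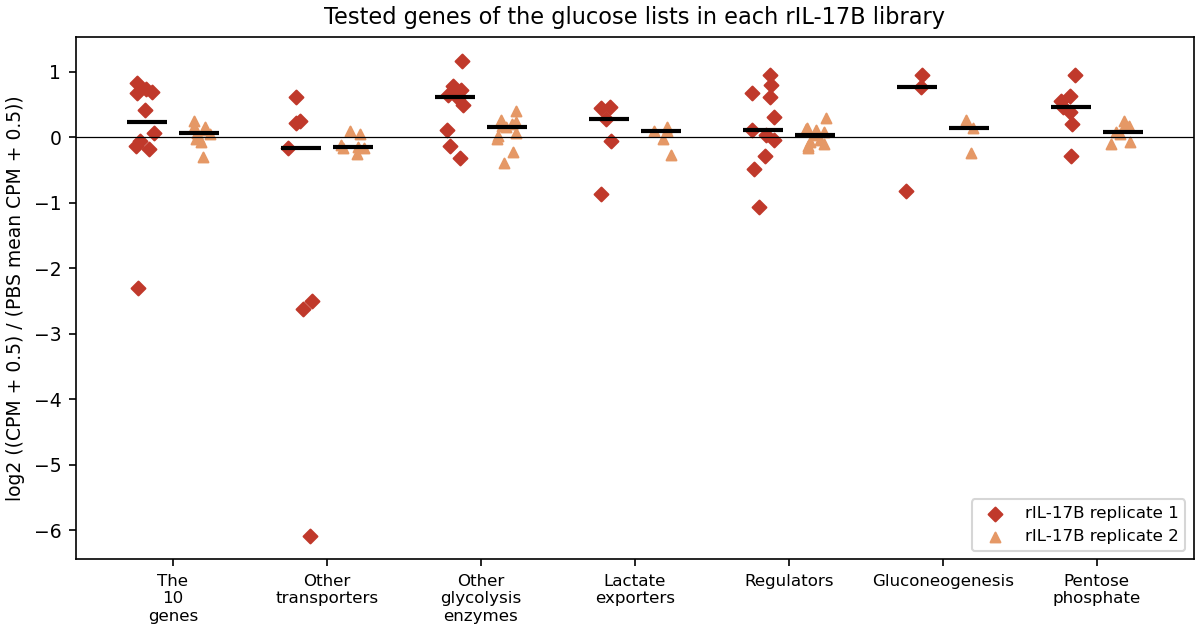
Log2 ratio of each tested gene's CPM to the PBS mean in rIL-17B replicates 1 and 2, on the log2(CPM + 0.5) scale, by gene list, with the median of each list as a bar. The medians of the other glycolysis enzymes are 0.61 and 0.15, and those of the 10 genes 0.23 and 0.06.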

How the data were processed

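Per the labels, RNA of HGC-27 cells was read by Smart-seq2 in 4 libraries, 2 with PBS and 2 with rIL-17B. The authors deposited counts, whole reads per gene name, without normalization. The submitters' processing notes name the build hg38, Bowtie2 2.2.3, HISAT2 2.1.0, TopHat2 and HTSeq 0.6.0, with no roles. The annotation, the use of strand and the treatment of shared reads are not given in the sources used here.

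A gene not listed in a library was set to 0. Entries that look like dates or numbers (22 to 25 a library, 0.228 to 0.244% of the counts) were left out, and 83 to 98 names a library that stood more than once with the same count were kept once. CPM is the count divided by the library total of 12888029 to 17555879, times 1000000, and 3 counts, taken as the floor, are 0.171 to 0.233 CPM. Levels between genes were divided by the merged exon length in GENCODE 29.

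edgeR 4.0.16 (limma 3.58.1, R 4.3.3) filtered genes with filterByExpr, scaled by TMM (factors 0.97 to 1.07) and fitted the quasi-likelihood model, rIL-17B against PBS, with Benjamini-Hochberg adjustment over 16361 genes at 0.05. SE is the absolute log2 fold change divided by the square root of F. Isozyme ratios were compared by exact permutation. The alternatives were DESeq2 1.42.0, upper quartile scaling, library totals alone, other filters, a replicate block, duplicated names summed, an added count, longest transcripts and each library left out. Tables and intervals were made with Python 3.11.15, pandas 2.3.3 and scipy 1.17.1.

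The 10 genes and the lists were chosen with earlier results of these data known, and the comparison of single libraries at 1.5-fold, the shared 50-base stretches, the ACGTG search and the counts of replicate 2 alone against PBS were added after the counts were seen. Named beside the 10 genes were LDHB, PFKL, PFKM, ALDOC and SLC2A14, the 5 tested genes of the other lists with the largest absolute log2 fold change, the 3 genes nearest to the gene of widest range, and marker genes where libraries stood apart. AC093512.2, AC019069.1, LRRC23 and LDHAP4 were named for sharing sequence or position with one of the 10.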

Additional observations from a re-analysis of the deposited data

How the results depend on the processing

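The number of genes past the threshold was 0 under every scaling, filter and tool tried, with 226 genes at an unadjusted p under 0.05 in edgeR as reported and 161 to 879 under the others (DESeq2 457), and 2 without either PBS library. Leaving out 1 library each gave 0 to 9489 genes: 504 without rIL-17B replicate 1, 9489 without replicate 2 and 0 without either PBS library. Of the 10 genes 0 to 8 were then called (1 and 8 without rIL-17B replicates 1 and 2) and of the other glucose genes 0 to 31 (2 and 31). Of 100 log2 fold changes of the 10 genes under alternatives, 87 kept direction and side of the threshold, 9 passed it newly and 4 turned sign. HK1 turned to 0.061 with library totals alone and ran from -0.079 to 0.061 when 1 library was left out, and SLC2A3 ran from -0.21 to 0.012, both crossing 0. With longest transcripts the PBS ratio per kilobase moved from 0.439 to 0.293 for HK2 to HK1 and from 0.0304 to 0.0223 for ENO2 to ENO1, which only the lengths set.

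With a replicate block 0 genes passed (173 at an unadjusted p under 0.05) and ENO2 was at -1.39. Nothing in the labels ties same-numbered libraries. Their deviations correlated at 0.083 across genes, but this value cannot decide whether they were paired, because rIL-17B replicate 1 stood apart from the other libraries. Whether same-numbered libraries were made together is therefore not known. Depth was at least 161 counts for each of the 10 genes.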
